A study of Mus musculus with 18 samples.

Results

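The genes described here encode the enzymes that make cholesterol from acetyl-CoA, the regulators of that pathway, and proteins that move sterols within and out of the cell. The list holds 30 genes chosen by function, with earlier results of these data known. Of them 28 were measured, out of 18193 genes with a probe set naming 1 gene. The shares of all genes given beside the counts below are therefore descriptive only. Acat2 and Nr1h2 were not analysed here. The 28 genes have 64 probe sets, and where a gene had several, the one with the highest mean over all arrays was used. They fall into 18 enzymes of synthesis, 4 regulators, 3 genes of sterol efflux and the liver X receptor (LXR), and 3 genes of intracellular sterol transport.

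Whole depots of brown adipose tissue (BAT), subcutaneous white adipose tissue (sWAT) and mesenteric white adipose tissue (mWAT) were compared between mice held in the cold and mice held near thermoneutrality. All mice were Sv129 females of 10 wk with no transgene or drug named, exposed to 6 or 28 °C for 10 days. RNA was amplified and hybridized to Affymetrix arrays, with 3 arrays for each of the 6 groups and 18 arrays in all, numbered 1 to 3 within a group only to name them. The labels do not say which arrays came from the same mouse, and nothing ties arrays across groups, so the p-values measure the spread between these arrays. The values are log2 of the deposited linear intensities. The brightness of 2 probe sets cannot be compared, so each gene is compared only with itself. A gene was called changed when its adjusted p in a limma fit of all 18 arrays was under 0.01.

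The titles and the other characteristics of the arrays name different tissues and temperatures. Groups formed from the titles, which were used, accounted for a median of 67.0% of the variance of the 28 genes between arrays, and groups formed from the other characteristics for 25.5%. The mean log2 intensity of 8 brown fat markers was 11.6 to 11.82 in BAT and 8.29 to 8.86 in sWAT at 28 °C. The lymphocyte markers separated mWAT array 3 at each temperature (7.03 and 7.02) from the other mWAT arrays (11.22 to 11.46), and those arrays are shown separately where a result rests on them. A lower signal in a whole depot can come from fewer cells of a type or from less RNA in each cell, and these cannot be told apart.

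Cholesterol synthesis starts with the mevalonate pathway, which builds isoprenoid units that are joined to farnesyl diphosphate and then to squalene, and a series of further enzymes closes and trims squalene to the sterol. SREBP-2, encoded by Srebf2, is held in the endoplasmic reticulum by Scap and the Insig proteins when sterols are plentiful and otherwise turns on the genes of synthesis. LXR is activated by oxysterols and turns on the exporters Abca1 and Abcg1. Brown fat is known for taking up and burning lipid in the cold, and adipocytes hold much of the body's free cholesterol.

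Promoters were read from RefSeq, build GRCm38.p6, from 250 bases before to 50 bases after each gene start, for 24 of the 30 listed genes and for 27025 genes in all. The 5 genes below are those that rose in cold BAT other than Fdps, which had no promoter among those read and was not searched. They are shown because they share the CCAAT box, the element bound by NF-Y, which acts together with SREBPs at sterol genes. Each line gives the 150 bases before a start on the strand of the gene, 5′ to 3′, with CCAAT, or ATTGG where the box lies on the other strand, in capitals. The other start listed for Pmvk has none in its 150 bases. The last line is 69 bases of the Hmgcs1 promoter, with the sterol regulatory element, the site of SREBPs, in capitals.
Cyp51 (chr5:4104698-4104847, minus strand): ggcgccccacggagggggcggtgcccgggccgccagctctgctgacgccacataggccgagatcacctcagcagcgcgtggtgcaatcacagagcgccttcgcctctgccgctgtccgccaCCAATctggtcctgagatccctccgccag
Idi1 (chr13:8885456-8885605, plus strand): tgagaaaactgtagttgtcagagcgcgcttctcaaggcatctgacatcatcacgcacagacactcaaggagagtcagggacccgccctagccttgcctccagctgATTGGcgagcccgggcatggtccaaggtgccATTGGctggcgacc
Nsdhl (chrX:72918371-72918520, plus strand): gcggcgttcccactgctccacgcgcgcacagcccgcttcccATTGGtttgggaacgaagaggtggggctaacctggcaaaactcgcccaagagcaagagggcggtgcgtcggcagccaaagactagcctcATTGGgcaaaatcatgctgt
Pmvk (chr3:89454391-89454540, plus strand): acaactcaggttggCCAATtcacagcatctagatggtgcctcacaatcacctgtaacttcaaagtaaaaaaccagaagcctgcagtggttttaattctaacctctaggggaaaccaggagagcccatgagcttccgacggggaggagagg
Tm7sf2 (chr19:6067851-6068000, minus strand): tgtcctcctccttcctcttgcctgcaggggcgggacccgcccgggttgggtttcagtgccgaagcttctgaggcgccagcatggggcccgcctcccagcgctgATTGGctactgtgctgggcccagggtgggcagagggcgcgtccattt
Hmgcs1 (chr13:119690184-119690252, plus strand): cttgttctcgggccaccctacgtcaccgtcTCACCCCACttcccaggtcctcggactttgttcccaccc

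A CCAAT box on either strand was found in the promoters of 15 of 16 listed synthesis enzymes (93.8%) and of 41.1% of all genes. The promoters of the 5 genes that rose in cold BAT other than Fdps, which was not searched, each held a box. So did those of all 10 enzymes with a promoter that were measured and not called. The GC box GGGCGG was found in 14 of 16 enzymes (87.5%) and in 38.2% of all genes. The sterol regulatory element searched, TCACNCCAC, was found in 1 of the 24 promoters, that of Hmgcs1, from 137 to 129 bases before the start, and in 1.44% of all genes. Other forms of the element were not searched, so a promoter without this match is not shown to lack the element. The E-box CACGTG was found in 6 of 24 (25%), those of Hsd17b7, Dhcr7, Sc5d, Insig1, Scap and Abca1, and in 8.09% of all genes. No promoter of the 24 held the direct repeat of AGGTCA with 4 bases between, the element of LXR, which was found in 0.0148% of all genes. All motifs were searched on both strands, and none contains another. These are matches of letters in a short window, and none of them was measured for binding.

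The question of the first comparison was which of these genes respond to cold in BAT. All genes that passed were synthesis enzymes and all were higher at 6 °C. Of the 28 genes 6 were called higher and 0 lower, where 2.8% of all genes were called higher and 2.53% lower. The median log2 difference between 6 and 28 °C was 0.60 over the 18 enzymes, 0.35 over the 28 genes and 0.01 over all genes. At an unadjusted p under 0.05 were 16 of the 28 and 26.5% of all genes.

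In the mevalonate branch, 3 of 7 measured enzymes rose in cold BAT. Fdps, farnesyl diphosphate synthase, which joins isoprenoid units, had log2 intensities of 10.51, 10.58 and 10.39 in BAT at 28 °C and of 12.03, 11.97 and 12.06 at 6 °C. Its warm BAT arrays were the lowest of all 18 and its cold BAT arrays the highest of all 18. It rose by 1.53 ± 0.13 on the log2 scale (SE, n = 3 arrays per group), 2.88-fold (adjusted p = 1.6e-05). Among the probe sets used for the 28 genes, this was the largest change in any cold comparison. Pmvk, phosphomevalonate kinase, measured 11.59, 11.65 and 11.34 at 28 °C and 12.26, 12.36 and 12.36 at 6 °C. The groups did not overlap, and the rise was 0.80 ± 0.15, 1.74-fold (adjusted p = 0.0038). Idi1, the isomerase that turns isopentenyl diphosphate into its reactive form, measured 11.55, 11.56 and 11.43 at 28 °C and 12, 12.14 and 12.29 at 6 °C. It rose by 0.63 ± 0.11, 1.55-fold (adjusted p = 0.0019), again without overlap.

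Of the other mevalonate genes, Mvd, which makes isopentenyl diphosphate, measured 9.05 to 9.31 at 28 °C and 9.43 to 9.98 at 6 °C in BAT (0.57 ± 0.34, adjusted p = 0.316). Hmgcs1, which makes HMG-CoA, differed by 0.13 ± 0.10 and mevalonate kinase, Mvk, by 0.18 ± 0.21. The arrays of these 3 genes did not overlap either, but the differences were small against the spread of the fit. Ggps1, which leads farnesyl diphosphate away from sterols to geranylgeranyl diphosphate, lay lower in the cold, at 9.47, 9.52 and 9.28 against 9.84, 9.72 and 9.57, and was not called (-0.29 ± 0.17, adjusted p = 0.323).

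In the branch from squalene to cholesterol, 3 of 11 enzymes rose in cold BAT. Nsdhl, a dehydrogenase that decarboxylates the sterol while its C4 methyl groups are removed, measured 10.74, 10.94 and 10.64 at 28 °C and 11.74, 11.89 and 11.87 at 6 °C. The rise was 1.06 ± 0.16, 2.09-fold (adjusted p = 0.00071), and no array overlapped. Cyp51, lanosterol 14-demethylase, measured 10.59, 10.79 and 10.50 at 28 °C and 11.46, 11.64 and 12.02 at 6 °C. It rose by 1.08 ± 0.23, 2.12-fold (adjusted p = 0.0066), with the widest spread of the 6 genes among the cold arrays. Tm7sf2, a sterol 14-reductase that follows Cyp51, measured 9.25, 9.19 and 9.29 at 28 °C and 10.16, 10.33 and 10.04 at 6 °C. It rose by 0.94 ± 0.17, 1.91-fold (adjusted p = 0.0023), without overlap.

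**Figure D1:**
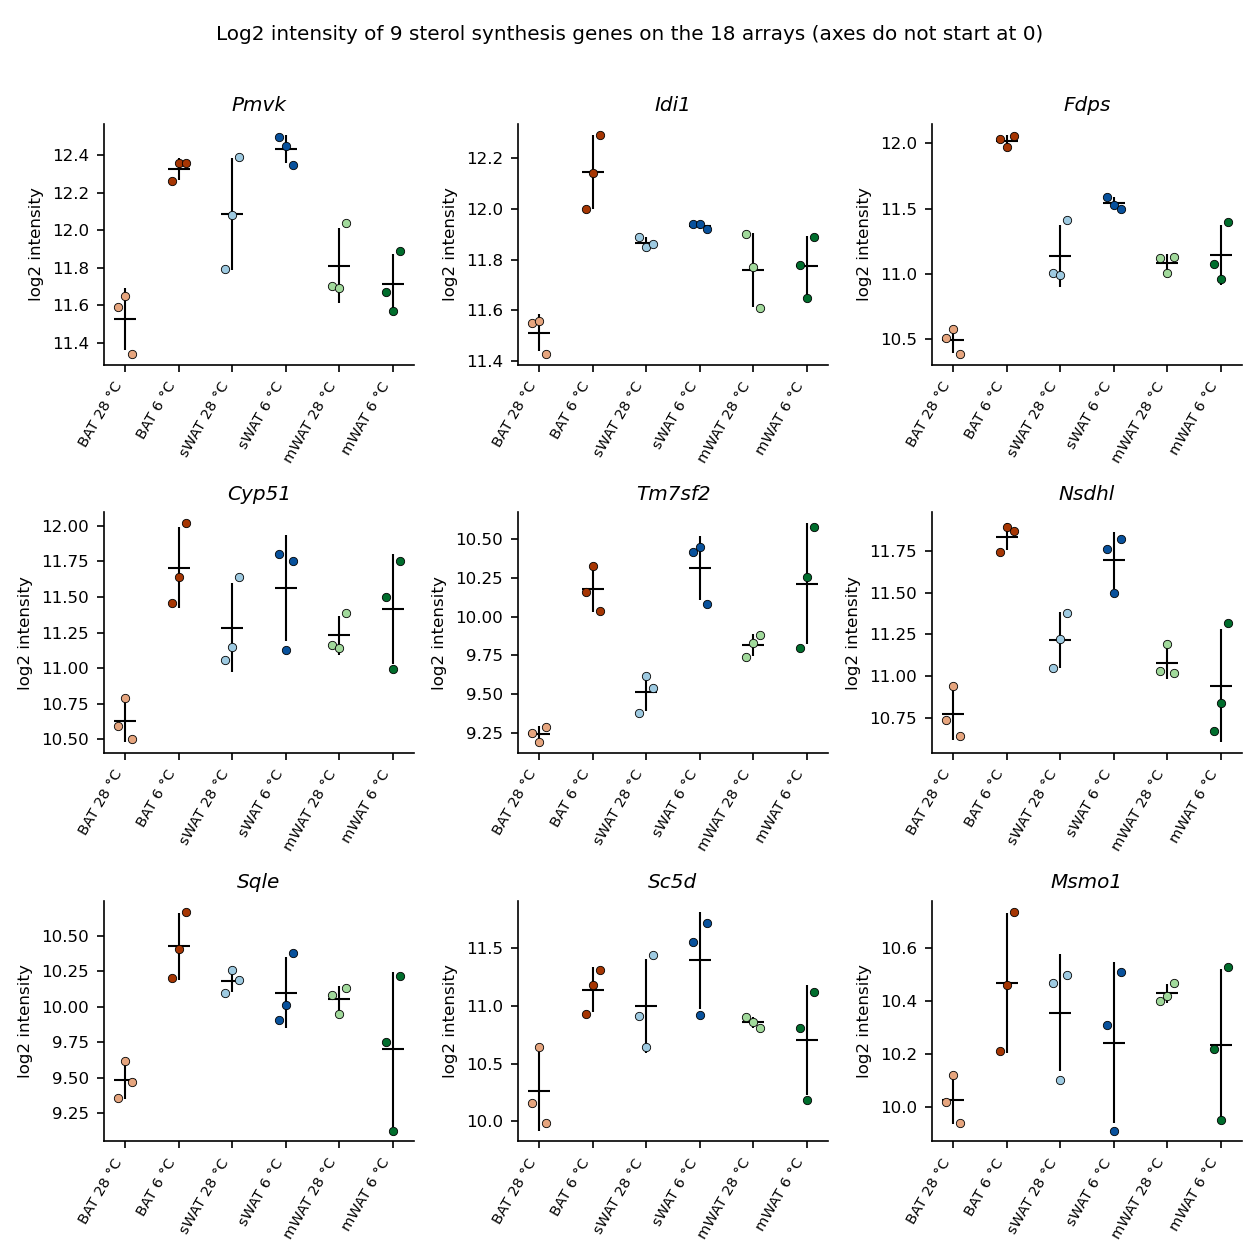
Log2 intensity (vertical axis, not from 0) of 9 synthesis genes, the 6 called higher in cold BAT and Sqle, Sc5d and Msmo1, with 1 point per array and the mean ± SD (n = 3) for each depot and temperature. In each of the 9 genes all 3 cold BAT arrays lie above all 3 warm BAT arrays, for Fdps at 11.97 to 12.06 against 10.39 to 10.58.

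Squalene epoxidase, Sqle, an early oxygen-requiring and rate-controlling step, came next. It measured 9.36, 9.62 and 9.47 at 28 °C and 10.20, 10.41 and 10.67 at 6 °C, a difference of 0.94 ± 0.22 whose adjusted p of 0.011 missed the threshold. Hsd17b7 (0.79 ± 0.21, adjusted p = 0.022), a ketoreductase, and Sc5d (0.88 ± 0.27, adjusted p = 0.045), a desaturase of the sterol ring, lay just beyond it as well. Sc5d has other probe sets that passed: the pair with mean log2 intensities of 10.46 and 6.93 differed by 1.26 ± 0.26 (adjusted p = 0.0058) and 1.88 ± 0.29 (adjusted p = 0.00087). The mean of 6.93 lies under the array medians of 6.97 to 7.21, so the exact size of that change is not measured. The methylsterol oxidase Msmo1 (0.44 ± 0.19), lanosterol synthase, Lss (0.37 ± 0.21), and Dhcr7, which catalyses a last reduction (0.29 ± 0.15), had higher cold arrays without overlap and were not called. The other probe set of Msmo1 went the other way, by -0.42, and was not called either. Ebp, a sterol isomerase, overlapped (0.06 ± 0.11). Fdft1, squalene synthase, ran the other way in its brightest probe set, at 12.20, 12.20 and 12.08 at 28 °C and 11.75, 11.80 and 11.83 at 6 °C. All its cold arrays lay below the warm ones, and the difference of -0.37 ± 0.14 was not called (adjusted p = 0.115). Its 3 other probe sets disagreed, with differences from -0.42 to 0.59. Only 1 of them had the same sign, and none was called.

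Over the 28 genes, the 3 cold BAT arrays lay above all warm ones in 22 and below them in 2, Fdft1 and Ggps1. Among all genes 19.9% lay above and 19.9% below in the same way. The rise of Fdps and Nsdhl was called in all 18 fits that each left out 1 array. Cyp51 was lost without any 1 of the 6 BAT arrays (0.93 to 1.21, adjusted p up to 0.038), Pmvk without array 3 at 28 °C or any array at 6 °C (adjusted p up to 0.022), Idi1 without array 3 at either temperature (up to 0.013), and Tm7sf2 without array 2 at either temperature (up to 0.012). The count was 3 without BAT array 3 at 28 °C, and 3 also without array 2 or array 3 at 6 °C. Cyp51 and Idi1 each have further probe sets, all with the same sign and none called. The other probe set of Fdps is dim, at a mean log2 intensity of 2.93, and did not move (0.07 ± 0.16).

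The regulators moved less. Insig1 (0.30 ± 0.12), Insig2 (0.28 ± 0.13) and Scap (0.34 ± 0.14), which hold SREBP-2 back or escort it, lay higher on every cold BAT array, and their adjusted p-values were 0.115, 0.18 and 0.138. Srebf2 itself measured 10.11, 10.27 and 10.26 at 28 °C and 10.14, 10.47 and 10.40 at 6 °C, with overlap (0.13 ± 0.19). None of the 4 was called.

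Of the efflux genes, Nr1h3, which encodes LXR alpha, measured 10.46, 10.20 and 10.17 in BAT at 28 °C and 10.85, 10.85 and 10.96 at 6 °C. The groups did not overlap and the difference was 0.61 ± 0.15, with an adjusted p of 0.019 above the threshold. Its target Abca1 overlapped (-0.23 ± 0.20), with 1 low cold array at 10.76. Abcg1, which loads cholesterol on HDL, was higher on each cold array, at 9.81, 9.55 and 9.78 against 9.20, 9.15 and 8.90 (0.63 ± 0.49, adjusted p = 0.463). The dimmer probe set of Abcg1 differed by only 0.07.

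Among the transport genes, Npc1, which releases cholesterol from lysosomes, differed by 0.29 ± 0.12 in BAT and Stard4, a cytosolic sterol carrier, by 0.27 ± 0.14, both without overlap and neither called. Npc2, the lysosomal partner of Npc1, was level in its brightest probe set (-0.02 ± 0.09), while another of its 4 probe sets, with a mean log2 intensity of 10.35, was called higher (0.67 ± 0.13, adjusted p = 0.0038). The remaining ones, with means of 13.04 and 4.88, differed by -0.06 ± 0.10 and -0.72 ± 0.31 and were not called.

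**Figure D2:**
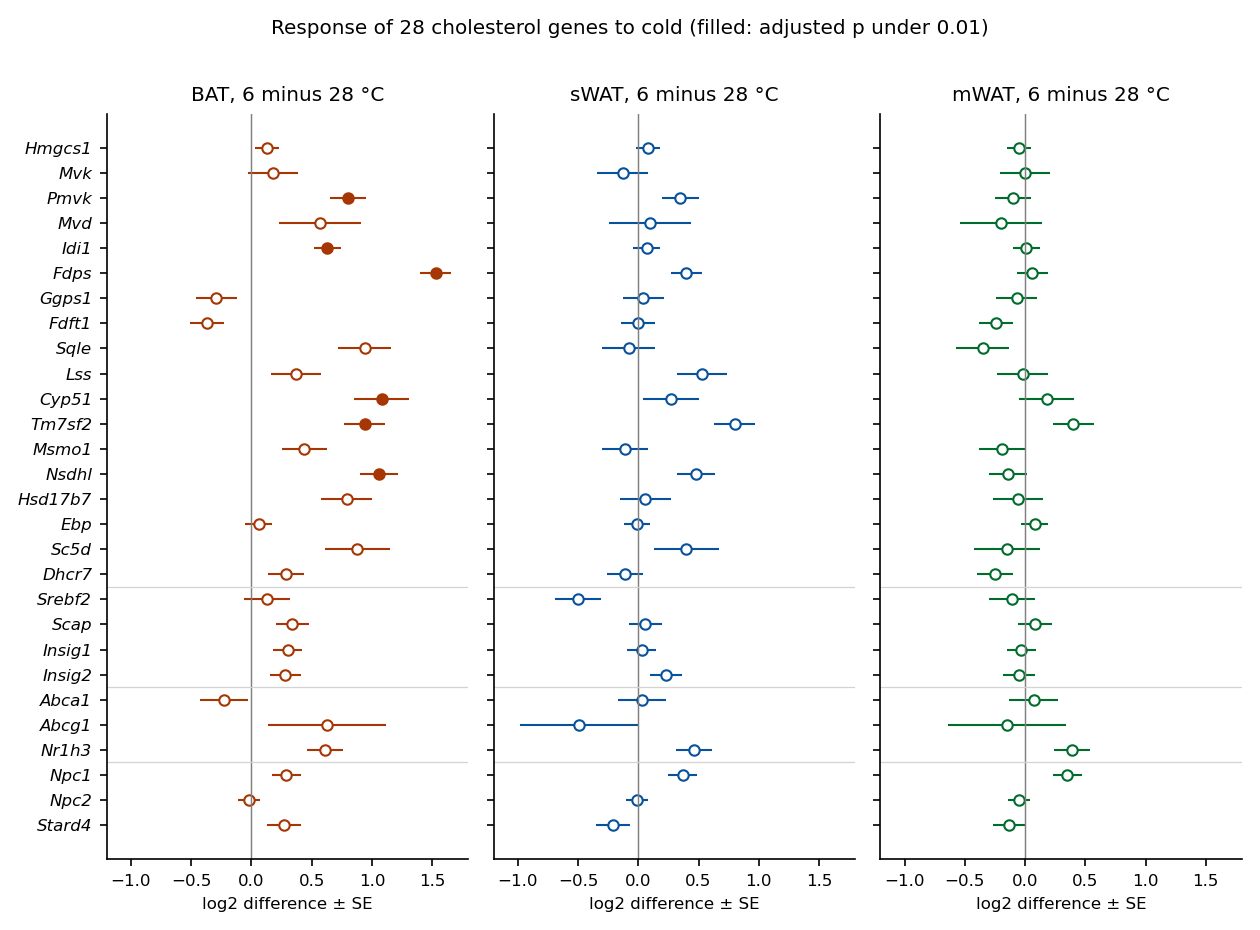
Log2 difference between 6 and 28 °C (horizontal axis, ± SE of the limma fit, n = 3 arrays per group) of the 28 genes in BAT, sWAT and mWAT, with enzymes, regulators, efflux genes and transport genes from top to bottom. Filled points mark the 6 genes called, all in BAT, with Fdps at 1.53 the farthest to the right.

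Other lists moved in BAT along with these genes. The mean of 10 skeletal muscle markers was 8.97, 12.92 and 12.53 on BAT arrays 1 to 3 at 28 °C and 8.31, 10.88 and 9.02 at 6 °C, none of the 10 called. With that mean as a covariate, 4 of the 28 genes were called in place of 6, and Cyp51 (0.92, adjusted p = 0.025, against 1.08 without it) and Pmvk (0.75, adjusted p = 0.015, against 0.80) no longer passed. BAT array 1 at 28 °C, whose muscle level lay within the range of the cold arrays, was the middle one of the 3 warm arrays in each of the 6 genes called. Adipocyte markers (4 genes) spanned 12.96 to 13.34 at 28 °C and 11.97 to 12.69 at 6 °C. The 1 of them called lower was leptin, Lep (-2.76 ± 0.58, adjusted p = 0.0065), while Adipoq, Fabp4 and Retn differed by -0.19, -0.05 and -0.32. Macrophage markers (12 genes) spanned 8.72 to 9.12 and 8.43 to 8.79, 1 of 12 called lower. The pancreas markers (4 genes) were at 10.91 on BAT array 3 at 6 °C and at 7.20 or less on the other BAT arrays. The part of these differences in the rise of the enzymes was not tested beyond the covariate and the fits without an array.

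In sWAT, where brown fat markers rose with cold (5 of 8 called higher), none of the 28 genes was called by limma, and 8 were at an unadjusted p under 0.05, as were 14.2% of all genes. Of all genes, 0.72% were called higher and 0.022% lower. Tm7sf2 came closest, at 9.38, 9.62 and 9.54 at 28 °C and 10.42, 10.45 and 10.08 at 6 °C. All cold arrays were higher, and the difference was 0.80 ± 0.17 (adjusted p = 0.026). It passed without mWAT array 1 or array 3 at 6 °C (adjusted p = 0.0086 and 0.01), which change only the spread shared by the groups. Fdps in sWAT measured 11.01, 10.99 and 11.41 at 28 °C and 11.59, 11.53 and 11.50 at 6 °C, all higher in the cold (0.40 ± 0.13, adjusted p = 0.176). Nsdhl (0.48 ± 0.16), Npc1 (0.37 ± 0.12), Insig2 (0.23 ± 0.13) and Idi1 (0.07 ± 0.11) also had no overlap. Lss (0.53 ± 0.21), Nr1h3 (0.46 ± 0.15) and Pmvk (0.35 ± 0.15) did overlap. Srebf2 ran the other way, at 11.13, 10.88 and 10.87 at 28 °C and 9.94, 10.62 and 10.83 at 6 °C, and was not called (-0.50 ± 0.19, adjusted p = 0.273). The median difference was 0.07 over the 18 enzymes.

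In mWAT none of the 28 genes was called either, and 3 were at an unadjusted p under 0.05, Tm7sf2 (0.40 ± 0.17), Nr1h3 (0.39 ± 0.15) and Npc1 (0.35 ± 0.12), against 4.6% of all genes. Only 0.0055% of all genes were called higher in mWAT and 0% lower. The median over the 18 enzymes was -0.06. Nr1h3 measured 9.48, 9.55 and 9.73 at 28 °C and 9.84, 9.99 and 10.12 at 6 °C, without overlap. Npc1 had no overlap between temperatures in any of the 3 depots, in mWAT at 9.27, 9.33 and 9.43 against 9.78, 9.80 and 9.51, and passed the threshold in none. The share of all genes without overlap between temperatures was not computed for sWAT or mWAT. The cold mWAT arrays differed among themselves: array 2 was the lowest of its 3 in 14 of the 18 enzymes and array 3 the highest in 15. On the same arrays the pancreas markers were at 6.29, 14.25 and 5.59 and the lymphocyte markers at 11.34, 11.26 and 7.02. Their part in the spread of the enzymes was not tested.

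**Figure D3:**
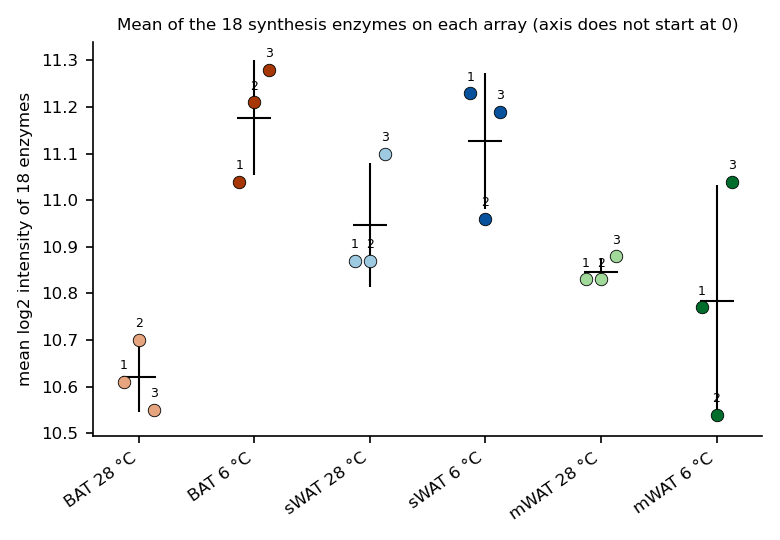
Mean log2 intensity of the 18 synthesis enzymes (vertical axis, not from 0) on each array, numbered 1 to 3 within its group, with the mean ± SD (n = 3) for each depot and temperature. BAT lies at 10.55 to 10.70 at 28 °C and at 11.04 to 11.28 at 6 °C, while the mWAT arrays at 6 °C spread from 10.54 to 11.04.

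Whether BAT responded differently from the white depots was tested as the difference of the cold responses, comparisons that share the BAT arrays. Fdps was the 1 gene of 28 called, in each case higher in BAT, by 1.12 ± 0.19 against sWAT (adjusted p = 0.0086) and by 1.47 ± 0.19 against mWAT (adjusted p = 0.0016). Of all genes 0.187% were called higher and 0.28% lower against sWAT, and 0.324% and 0.242% against mWAT. The difference from mWAT was called in all 18 fits without 1 array (1.37 to 1.60). The difference from sWAT was lost in 15 of the 18 (0.99 to 1.20, adjusted p up to 0.03), that is without any BAT or sWAT array and without mWAT array 1 or 2 at 28 °C or array 1 at 6 °C. It was also lost with the muscle covariate and in a fit of the 4 groups alone, in which the difference from mWAT was lost too. Averaging Fdps with its dim probe set ended both calls as well. Against mWAT, Nsdhl (1.20 ± 0.23, adjusted p = 0.013), Sqle (1.30 ± 0.31, adjusted p = 0.039) and Pmvk (0.90 ± 0.22, adjusted p = 0.043) missed the threshold. Without mWAT array 3 at 6 °C, Nsdhl (1.39, adjusted p = 0.0022) and Sqle (1.56, adjusted p = 0.0064) passed it. For Tm7sf2 the responses of BAT and sWAT differed by 0.13 ± 0.24, and for Npc1 by -0.08 ± 0.17. No gene of the 28 was called between the responses of sWAT and mWAT, where limma called 0% of all genes in each direction and 1 of the 28, Nsdhl, was at an unadjusted p under 0.05 (0.61 ± 0.23), as were 5.63% of all genes.

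The depots were also compared at 28 °C. Most enzymes lay lower in warm BAT: 14 of 18 had a lower mean than in sWAT, with a median difference of -0.35, and 14 a lower mean than in mWAT, with a median of -0.30. The medians over all genes were 0.08 in each case. For 16 of the 28 genes all BAT arrays lay below all sWAT arrays, and for 13 below all mWAT arrays, where 27.6% and 25.4% of all genes did so. Few of these differences were called. Against sWAT 1 gene was called higher and 3 lower in BAT (14.5% of all genes were higher and 13% lower), and against mWAT 2 were higher and 3 lower (17.7% and 14.8%). The medians of BAT arrays were lower than those of the white depots, and centring each array on its median moved BAT up by 0.13 against sWAT and by 0.12 against mWAT. After centring the calls against sWAT were 2 higher and 0 lower, and against mWAT 3 higher and 1 lower. Markers of other cell types were lower in warm BAT too. Against sWAT 9 of 12 macrophage markers (median -1.35), 5 of 8 lymphocyte markers (-4.22) and 6 of 8 mammary epithelium markers (-5.6) were called lower, and against mWAT 8 of 12 (-1.2), 4 of 8 (-3.81) and 2 of 8 (-0.85). Their part in the depot differences was not tested beyond the lymphocyte covariate. The mean of the lymphocyte markers was at most 6.52 on any BAT array and at least 7.02 on any white array. A fit with that covariate therefore extrapolates between depots, and it cannot decide the part of lymphocytes in a depot difference.

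Fdft1 was the enzyme called higher in BAT. At 28 °C it measured 12.20, 12.20 and 12.08 in BAT, 11.41, 11.40 and 11.63 in sWAT, and 11.08, 11.02 and 11.18 in mWAT. No depot overlapped another, and BAT was higher by 0.68 ± 0.14 than sWAT (adjusted p = 0.002) and by 1.07 ± 0.14, 2.09-fold, than mWAT (adjusted p = 3.6e-05). A further probe set of Fdft1, with a mean log2 intensity of 11.2, was 1.26 ± 0.15 higher than in mWAT (adjusted p = 1.3e-05). The call against sWAT was lost without sWAT array 1 or 2 at 28 °C (adjusted p up to 0.01) and with the lymphocyte covariate (0.53, adjusted p = 0.059).

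Nr1h3 was higher in BAT than in mWAT, by 0.69 ± 0.15 (adjusted p = 0.0024) without overlap, and differed by 0.26 ± 0.15 from sWAT. The call was lost without BAT array 1 or mWAT array 1 at 28 °C (adjusted p up to 0.015) and with the lymphocyte covariate (0.42, adjusted p = 0.081).

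Srebf2, Fdps and Stard4 were the genes called lower in BAT than in each white depot. Srebf2 at 28 °C measured 10.11, 10.27 and 10.26 in BAT against 11.13, 10.88 and 10.87 in sWAT and 11.23, 11.21 and 11.21 in mWAT. BAT was lower by -0.75 ± 0.19 on the log2 scale than sWAT (adjusted p = 0.0069) and by -1.0 ± 0.19, 2.01-fold, than mWAT (adjusted p = 0.00069), while a dimmer probe set differed from mWAT by -0.29 ± 0.28. The difference from mWAT was called in all 18 fits without 1 array, and that from sWAT in none that lacked 1 of the 6 arrays compared (adjusted p up to 0.034). Fdps, at 11.01 to 11.41 in sWAT and 11.01 to 11.13 in mWAT, was lower in BAT by -0.64 ± 0.13 (adjusted p = 0.0018) and -0.59 ± 0.13 (adjusted p = 0.0025). The call against mWAT was lost without BAT array 3 or mWAT array 1 (adjusted p up to 0.014). Stard4 was lower by -0.57 ± 0.14 (adjusted p = 0.0061) and -0.59 ± 0.14 (adjusted p = 0.0045). Its call against sWAT was lost without any of the 6 arrays compared (up to 0.029) and that against mWAT without array 1 or 2 of either depot (up to 0.023). No call of Fdps or Stard4, nor that of Srebf2 against sWAT, was kept after centring. With the lymphocyte covariate Srebf2 differed from sWAT by -0.68 (adjusted p = 0.084) and from mWAT by -0.94 (adjusted p = 0.011), and Stard4 by -0.30 (adjusted p = 0.233) and -0.34 (adjusted p = 0.128), so that none of these passed. With the muscle covariate Stard4 differed by -0.52 (adjusted p = 0.013) and -0.42 (adjusted p = 0.097), and Fdps from mWAT by -0.44 (adjusted p = 0.065).

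Abcg1 had the largest depot differences and the widest spread. At 28 °C it measured 9.20, 9.15 and 8.90 in BAT, 11.05, 10.35 and 10.28 in sWAT, and 11.07, 11.20 and 9.14 in mWAT, and at 6 °C 10.84, 10.88 and 9.24 in mWAT. In mWAT array 3 at both temperatures sat at the level of BAT, and these are the arrays with few lymphocyte transcripts. BAT was lower by -1.48 ± 0.49 than sWAT (adjusted p = 0.029) and by -1.39 ± 0.49 than mWAT (adjusted p = 0.035), with overlap in the second. Without mWAT array 3 at 28 °C the difference from mWAT was -2.06 (adjusted p = 0.0011), and a dimmer probe set was called lower in BAT than in sWAT (-1.47, adjusted p = 0.0029) and mWAT (-1.31, adjusted p = 0.0053). The 8 lymphocyte markers were at 5.78 to 6.52 in BAT and 9.28 to 11.26 in sWAT. With the lymphocyte covariate Abcg1 differed by 0.30 from sWAT (adjusted p = 0.37) and by 0.20 from mWAT (adjusted p = 0.516). The marker ranges of BAT and the white depots do not meet, so this fit extrapolates and does not decide the part of lymphocytes in Abcg1. At 28 °C the 12 macrophage markers reached 9.12 at most in BAT, while the lowest sWAT array was at 9.93 and the lowest mWAT array at 9.82. The 8 mammary epithelium markers reached 7.83 at most in BAT, with sWAT at 10.4 or more and mWAT from 6.84 up. The part of the macrophage and mammary markers in Abcg1 was not tested. Arrays 3 of mWAT did not overlap with the other 4 mWAT arrays in 9 more genes, higher in Mvk, Pmvk, Mvd, Fdps, Sqle and Msmo1 and lower in Ggps1, Scap and Stard4, by -0.46 to 0.68 on average. That makes 6 of 28 higher and 4 lower with Abcg1, where 29.5% of all genes were higher and 20.1% lower.

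**Figure D4:**
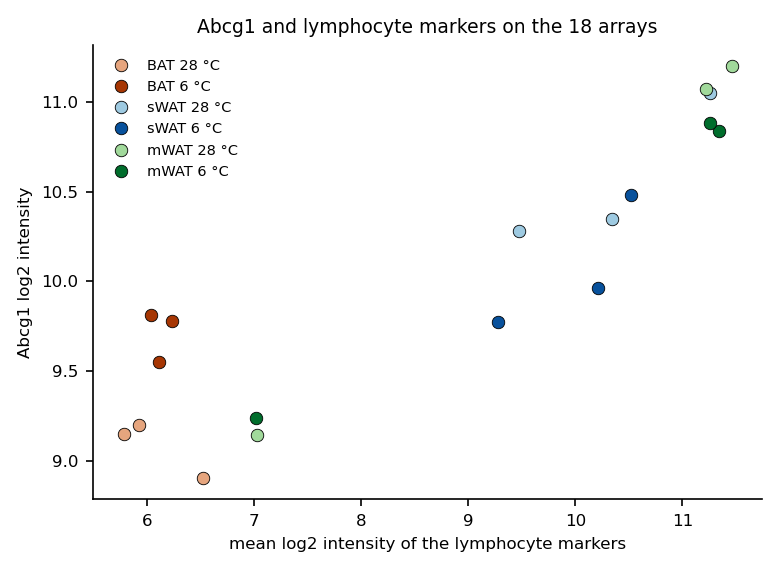
Abcg1 log2 intensity (vertical axis) against the mean log2 intensity of 8 lymphocyte markers (horizontal axis), 1 point per array, neither axis from 0. The 2 mWAT arrays at a lymphocyte level of 7.02 and 7.03 lie at 9.24 and 9.14 in Abcg1, near the BAT arrays, and the other 4 mWAT arrays at 10.84 to 11.20.

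Between sWAT and mWAT at 28 °C no gene of the 28 was called by limma, where 3.05% of all genes were higher and 4.82% lower in sWAT. At an unadjusted p under 0.05 were 25.1% of all genes and 3 of the 28, Fdft1 (0.38 ± 0.14), Ebp (0.25 ± 0.11) and Nr1h3 (0.43 ± 0.15), each higher in sWAT without overlap.

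The depots at 6 °C are given as group means with no test. Of the 18 enzymes, 10 had a higher mean in BAT than in sWAT (median gap 0.10) and 15 a higher mean than in mWAT (median gap 0.38). Against sWAT all cold BAT arrays lay above in 3 enzymes and below in 2, and 13 overlapped, where 31.2% of all genes lay above and 27.9% below. Against mWAT they lay above in 8 and below in 0, and 10 overlapped, where 33.9% of all genes lay above and 27% below. BAT at 28 °C had the lowest mean of the 6 groups in 12 of the 18 enzymes and BAT at 6 °C the highest in 9. The matching shares of all genes, and their median gaps at 6 °C, were not computed. For Fdps the gap went from -0.64 to 0.48 against sWAT and from -0.59 to 0.87 against mWAT. Nsdhl went from -0.31 to 0.89 against mWAT and Sqle from -0.57 to 0.73. Srebf2 stayed lower in BAT than in mWAT, at -1.0 and -0.77, and Fdft1 stayed higher, at 1.07 and 0.94. Among the other genes, Insig2 lay higher in BAT than in both white depots at 28 °C without overlap (0.39 ± 0.13 and 0.35 ± 0.13) and was called in neither. The range of the 6 group means was widest for Fdps, at 1.53, and narrowest for Npc2, at 0.12.

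**Figure D5:**
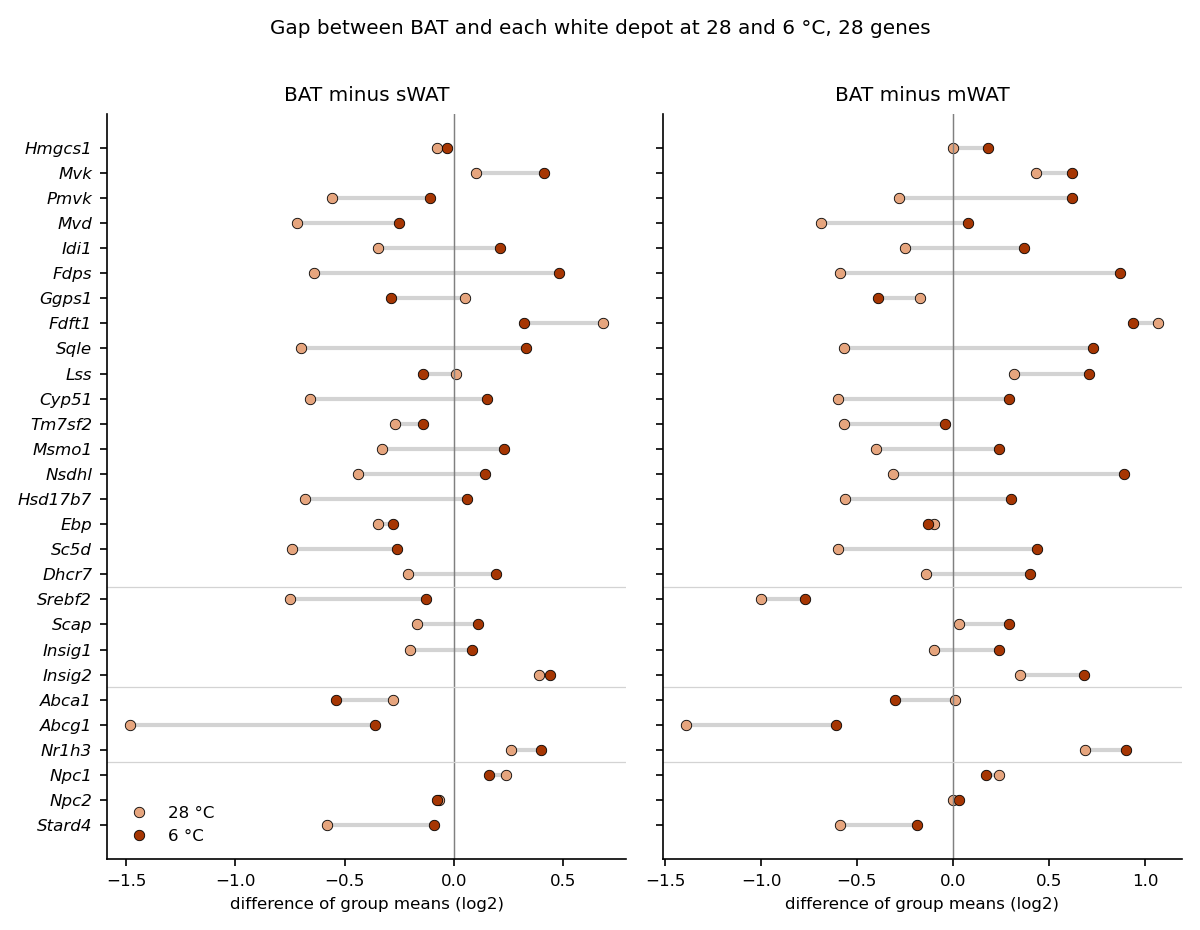
Difference of group means (horizontal axis, log2, n = 3 arrays per group) between BAT and sWAT, left, and between BAT and mWAT, right, for the 28 genes, with pale points at 28 °C and dark points at 6 °C. Most enzymes lie left of 0 at 28 °C, and 15 of 18 lie right of 0 against mWAT at 6 °C, with Fdps moving from -0.59 to 0.87.

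Other genes of cholesterol handling were taken from a list of 63 genes, of which 51 were measured and 12 were not analysed here. In cold BAT 1 of the 51 rose and 1 fell, where 2.8% of all genes were called higher and 2.53% lower. Lipa, lysosomal acid lipase, which frees cholesterol from its esters, measured 11.52, 11.12 and 11.06 at 28 °C and 12.60, 12.35 and 12.46 at 6 °C. It rose by 1.24 ± 0.15, 2.35-fold (adjusted p = 0.00015). Apoe, an apolipoprotein that adipocytes and macrophages secrete, measured 12.80, 12.93 and 13.11 at 28 °C and 11.09, 11.78 and 11.20 at 6 °C. The cold BAT arrays were the lowest of all 18, and the difference was -1.59 ± 0.17 (adjusted p = 6e-05). Its response in BAT differed from that in mWAT by -1.59 ± 0.24 (adjusted p = 0.0038). The macrophage markers overlapped between the temperatures on these arrays (8.43 to 8.79 at 6 °C and 8.72 to 9.12 at 28 °C), and their part in the change of Apoe was not tested. None of the 51 was called with cold in sWAT or mWAT by limma, with 8 and 3 at an unadjusted p under 0.05, where 14.2% and 4.6% of all genes were.

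At 28 °C 10 of the 51 were higher and 7 lower in BAT than in sWAT, where 14.5% of all genes were higher and 13% lower, and 13 were higher and 5 lower than in mWAT, against 17.7% and 14.8%. The highest in BAT were Vldlr, a receptor of triglyceride-rich lipoproteins (1.52 ± 0.17 against sWAT and 2.23 ± 0.17 against mWAT), Cyp27a1, the sterol 27-hydroxylase (1.72 ± 0.15 and 1.8 ± 0.15), and Gramd1c, a sterol transporter at membrane contacts (1.72 ± 0.20 and 2.10 ± 0.20). Gramd1c in warm mWAT, at 6.34, 6.74 and 6.93, lay under the array medians, as did 2 of 3 warm sWAT arrays, so the exact size of its difference is not measured. Among the genes called lower in BAT, Cyp7b1, the oxysterol 7-alpha-hydroxylase, differed most (-2.07 ± 0.26 and -2.56 ± 0.26). At 6.14 to 6.85 it lay under the array medians of 6.97 to 7.21 in warm BAT, where the exact size is not measured. Next among the genes called against sWAT were the phospholipid transfer protein Pltp (-0.79 ± 0.11) and Ch25h, cholesterol 25-hydroxylase (-0.96 ± 0.21). Ch25h, at 6.11 to 6.35 in warm BAT, also lay under those medians. Next among those called against mWAT were the scavenger receptors Msr1 (-1.92 ± 0.34) and Olr1 (-1.43 ± 0.40). Msr1 in mWAT measured 9.58, 9.96 and 8.68, array 3 being the lowest, and Olr1 lay under the array medians in every depot. Between sWAT and mWAT, Stard3, a late endosomal sterol transporter, was higher in sWAT (0.51 ± 0.11, adjusted p = 0.0053) and Nceh1, a cholesterol ester hydrolase, lower (-1.21 ± 0.21, adjusted p = 0.0014).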

How the data were processed

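The deposited table holds 1 linear intensity for each of 45101 probe sets on 18 Affymetrix arrays, made by the authors in Bioconductor by background adjustment, summary and normalization, the algorithm not given in the sources used here. Intensities run from 4.44 to 31897, with no detection values, so precision rests on the number of arrays. Arrays were grouped by title, source name and description, which contradict the other characteristics.

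Here 64 control probe sets were left out and log2 intensities of 45037 were fitted in R 4.3.3 with limma 3.58.1 (lmFit, eBayes), with a mean for each of 6 groups, 12 residual and 2.64 prior degrees of freedom. P-values were adjusted by Benjamini-Hochberg over the 45037 in each of 9 contrasts, with a threshold of 0.01, after the methods of the paper. The fit was tested on simulated data. Genes were named from the probe table of the platform (2016), in which 34945 probe sets name 1 gene, 932 several and 9160 none. Percentages of all genes use the brightest probe set of each gene. The members and lists were chosen with earlier results of these data known. All members are named, with full statistics for those called with cold or in a difference of cold responses and for up to 5 each way in a depot contrast. Other pathway genes are named where called with cold, or among the 3 largest of those called each way between depots at 28 °C. Alternatives were an adjusted p of 0.05, a 2-fold minimum, fits of only the groups in a contrast, quantile normalization, median centring, a filter that left 26097 brighter probe sets, variance trend with robust estimates, averaging all probe sets per gene, muscle or lymphocyte markers as a covariate, leaving out each array in turn, and leaving out both mWAT arrays 3. Promoters were searched and figures drawn with Python 3.11.15, pandas 2.3.3 and matplotlib 3.10.9.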

Additional observations from a re-analysis of the deposited data

Results flagged for a closer look

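The response of Fdps to cold differed between depots when the difference itself was tested. It was larger in BAT than in sWAT by 1.12 and larger in BAT than in mWAT by 1.47 on the log2 scale. The test against sWAT passed in 3 of the 18 fits that each left out 1 array and that against mWAT in all 18.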

How the results depend on the processing

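No difference called in the main fit changed sign in any alternative run. Abcg1 was called lower in BAT than in sWAT and mWAT only in some alternatives. Its differences had the other sign with the lymphocyte covariate, a fit that extrapolates between depots. In cold BAT the 6 genes called became 10 at an adjusted p of 0.05, 3 at 2-fold or more, 3 in a fit of the BAT arrays alone, and 3 to 7 without 1 array. In cold sWAT the count of 0 became 1 (Tm7sf2) at 0.05, 1 with the lymphocyte covariate, 1 without both mWAT arrays 3, and 0 to 1 without 1 array. Between BAT and sWAT the 4 genes became 14 at 0.05, 0 at 2-fold, 2 after median centring, 7 with dim probe sets left out, 2 with the lymphocyte covariate, 7 without both mWAT arrays 3, and 1 to 6 without 1 array. Between BAT and mWAT the 5 genes became 11 at 0.05, 2 at 2-fold, 2 in a fit of the compared groups alone, 3 with the muscle covariate, and 2 to 6 without 1 array. For the cold response of BAT against sWAT the 1 gene became 0 in a fit of the 4 groups alone, 0 with the muscle covariate, 0 with probe sets averaged per gene, and 0 to 1 without 1 array. Against mWAT the 1 gene became 4 at 0.05, 0 in a fit of the 4 groups alone, 2 with dim probe sets left out, 2 with variance trend and robust estimates, 3 with the lymphocyte covariate, 2 without both mWAT arrays 3, and 1 to 3 without 1 array. The cause was not tested. Cold in mWAT, sWAT against mWAT and the response of sWAT against mWAT stayed at 0 throughout. No paired analysis was possible because the labels give no replicate numbers and no mouse for an array. With 3 arrays per group and no detection values, precision is low, and probe sets under the array medians give no exact size of a change.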
